A study of Homo sapiens with 2 samples.

Results

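The Aurora kinases, the Polo-like kinases and the proteins that activate or anchor them were examined in A549, a human lung adenocarcinoma cell line, and in the cisplatin-resistant line A549/DDP that was derived from it. The 10 genes were taken from a list chosen by role, with earlier results of these data known. These genes are the kinases AURKA, AURKB, PLK1, PLK4 and NEK2, and the cofactors TPX2, BORA, BIRC5, CDCA8 and INCENP. They were 10 of 19775 genes measured, and were read by 19 probe sets, sets of short oligonucleotides that each report 1 transcript region. Each line was hybridised to 1 Affymetrix HG-U133 Plus 2.0 array, to find genes whose expression differed with resistance. A549 carries the phenotype label of a parental line and A549/DDP that of a chemoresistant one. Both lines were cultured conventionally and detached with trypsin, and no drug treatment at harvest is given in the labels. The description of the A549/DDP sample mentions overexpressed ZNF300 as well, but its title and phenotype label do not, and these were used. With 1 array for each line there is no spread between replicates, no p-value was computed, and a difference describes these 2 arrays.

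The Aurora and Polo kinases order the events of mitosis. Aurora A, encoded by AURKA, acts at centrosomes and spindle poles, where TPX2 binds it on spindle microtubules and holds it in its active form. BORA, bound to Aurora A, allows it to phosphorylate and switch on PLK1, which promotes entry into mitosis. Aurora B, encoded by AURKB, is the enzyme of the chromosomal passenger complex, in which INCENP is the scaffold and survivin (BIRC5) and borealin (CDCA8) bring the complex to the centromere. PLK4 starts the duplication of centrioles, and NEK2 loosens the linker between centrosomes before the spindle forms. Transcripts of most of these genes accumulate in G2 and mitosis, so in a growing culture their level also follows the share of dividing cells. More cells in G2 and mitosis and more transcript in each such cell cannot be told apart here.

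Values are log2 signals, and a difference is the log2 signal of the array labelled A549/DDP minus that of the A549 array. The floor was the median of each array, 6.22 for A549 and 6.18 for A549/DDP, and lower values were raised to it before a difference was taken. The probe set with the highest mean signal stood for its gene, and genes at or above the floor on 1 or both arrays counted as expressed. Differences of 3-fold in either direction were counted, a threshold taken from the screen for candidate genes. The zinc-finger gene ZNF300, on which the study centred, read 7.59 in A549 and 5.76 on the A549/DDP array. The study describes the opposite direction for that gene, so directions are given for the array as labelled. The keratins KRT8 and KRT18 were expressed on both arrays. Among 4 lung markers, the surfactant gene SFTPB was above the floor on both by its brightest probe set only, at 7.70 and 8.01. Its other probe sets were under the floor on both (5.69 and 4.13), above it in A549 only (6.75) or above it in A549/DDP only (6.70). The lung factor NKX2-1 (4.16 and 6.64) and NAPSA (5.72 and 6.50) were above the floor on the A549/DDP array only, and the surfactant gene SFTPC lay under it on both. The epithelial adhesion genes CDH1 and EPCAM were above the floor on the A549 array only, and the epithelial keratin KRT19 was under it on both. Neither array had any of the 3 endothelial markers above the floor. Of 2 leukocyte markers, PTPRC stayed under it on both and CD3E (5.72 and 6.93) was above it on the A549/DDP array only. Of 3 fibroblast markers, COL1A1 was above the floor on both, at 8.79 and 9.77, DCN on the A549 array only, at 6.59 against 6.11, and COL3A1 on neither. The part of other cell types in the results was not tested. As a check of RNA integrity, the 3' to 5' ratio of GAPDH was 1.05 for A549 and 1.02 for A549/DDP, and that of ACTB was 4.21 and 3.70.

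Of the 10 genes, 9 were expressed, and all 9 had a higher signal on the array labelled A549/DDP, beside 6628 of the 13159 expressed genes. The increase was at least 3-fold in 7 of them, and 0 were lower by as much. Across all 13159 expressed genes, 2.14% had a 3-fold or larger increase and 2.18% a decrease of that size. Since the members were chosen with earlier results known, such shares are a background and not an independent test. At a 2-fold threshold, 8 of the 9 were higher, beside 6.13% of expressed genes higher and 7.4% lower. Among the 6544 expressed genes whose mean signal lay between those of the dimmest and the brightest expressed member, 3.39% were past 3-fold upward and 3.04% downward. The median difference of the expressed members was 2.01, a fold of 4.04, beside a median of 0.00 over all expressed genes. Differences ran from 0.41 for PLK1 to 3.003 for TPX2.

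**Figure D1:**
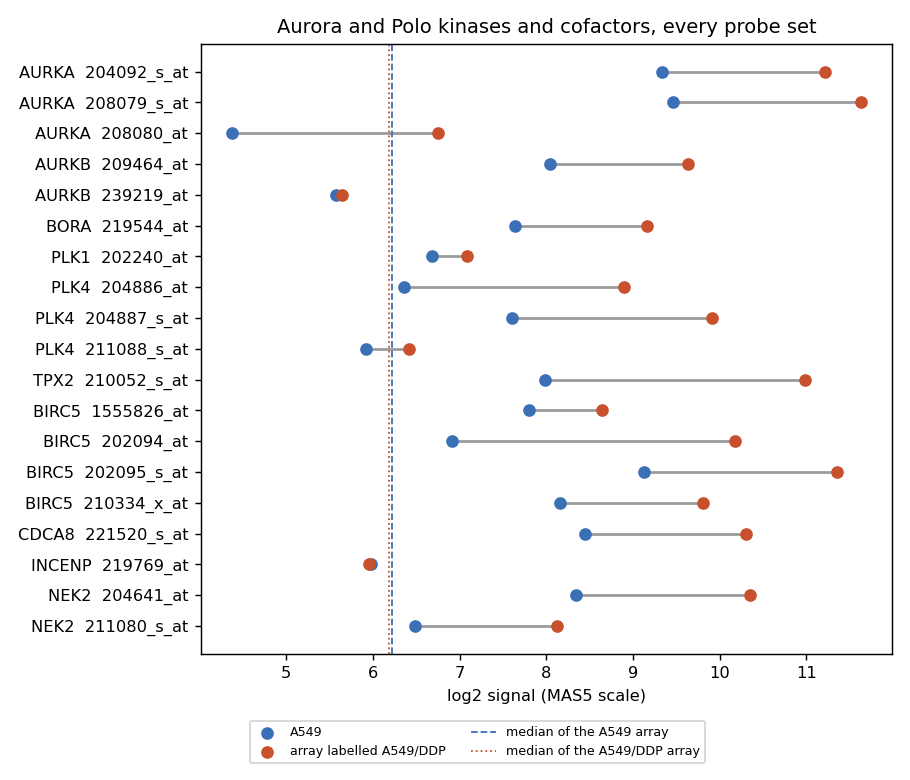
Log2 signal (x axis) of each of the 19 probe sets of the 10 genes (y axis) in A549 (blue) and in A549/DDP as labelled (orange), 1 array each, with a line joining both points and the 2 array medians as vertical lines. In 18 of 19 probe sets the A549/DDP point lies to the right, and INCENP shows almost no distance between its points.

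The Aurora A group was led by its activator. TPX2 had a log2 signal of 7.99 in A549 and 10.99 in A549/DDP, or 253 and 2032 on the linear scale. This was an 8.02-fold increase, which placed TPX2 at rank 22 among the expressed genes ordered by increase. AURKA was read by 3 probe sets. Its brightest went from 9.46 to 11.63 (4.49-fold, rank 109) and another from 9.34 to 11.22 (3.68-fold). The remaining probe set was dim, at 4.38 in A549 and 6.75 in A549/DDP. With the A549 value raised to the floor, this gives a bound of at least 1.44-fold. That dim probe set reached the floor on the A549/DDP array only, which fixed its direction in advance. The other 2 probe sets of AURKA had the same direction and gave a size. BORA, with 1 probe set, had 7.63 and 9.16, a 2.89-fold increase that lay just under the threshold. TPX2 and AURKA thus passed 3-fold, and BORA, which links Aurora A to PLK1, did not.

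The chromosomal passenger genes were uneven. BIRC5 went from 9.13 to 11.35 by its brightest probe set, a 4.67-fold increase at rank 92. Its other 3 probe sets were higher too, by 9.60-fold, 3.15-fold and 1.79-fold, so that 3 of 4 passed the threshold and the measured differences had an SD of 1.02. The 4 probe sets of survivin thus shared a direction and not a size. CDCA8 had 8.44 in A549 and 10.30 in A549/DDP, a 3.62-fold increase by its only probe set. AURKB, the kinase of the complex, was read above the floor by 1 of 2 probe sets, which went from 8.04 to 9.64. That 3.02-fold increase only just passed the threshold. The second probe set of AURKB lay under the floor on both arrays, at 5.57 and 5.65. INCENP, the scaffold, was the only member not expressed: its probe set read 5.97 in A549 and 5.95 in A549/DDP, which is 62.7 and 61.7 on the linear scale against array medians of 74.6 and 72.7. No fold was given for INCENP, since a probe set at that brightness gives no measure of how much transcript was present.

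Both Polo-like kinases among the 10 genes were higher, by very different amounts. PLK4, the centriole kinase, went from 7.60 to 9.91 by its brightest probe set, a 4.96-fold increase at rank 81, and from 6.35 to 8.89 by another, a 5.81-fold increase. The last probe set of PLK4 was dim, at 5.92 and 6.42, a bound of at least 1.15-fold. PLK1 stood apart from the other expressed members. Its only probe set read 6.68 in A549 and 7.09 in A549/DDP, a 1.33-fold increase, and 23.2% of expressed genes had a difference at least as high. Both PLK1 values were close above the floor, at the 56.4th and 61.7th percentile of their arrays, where MAS5 signals scatter widely. NEK2 went from 8.34 to 10.35, a 4.04-fold increase, and its second probe set from 6.48 to 8.13, a 3.13-fold increase. NEK2 thus passed the threshold with both of its probe sets.

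**Figure D2:**
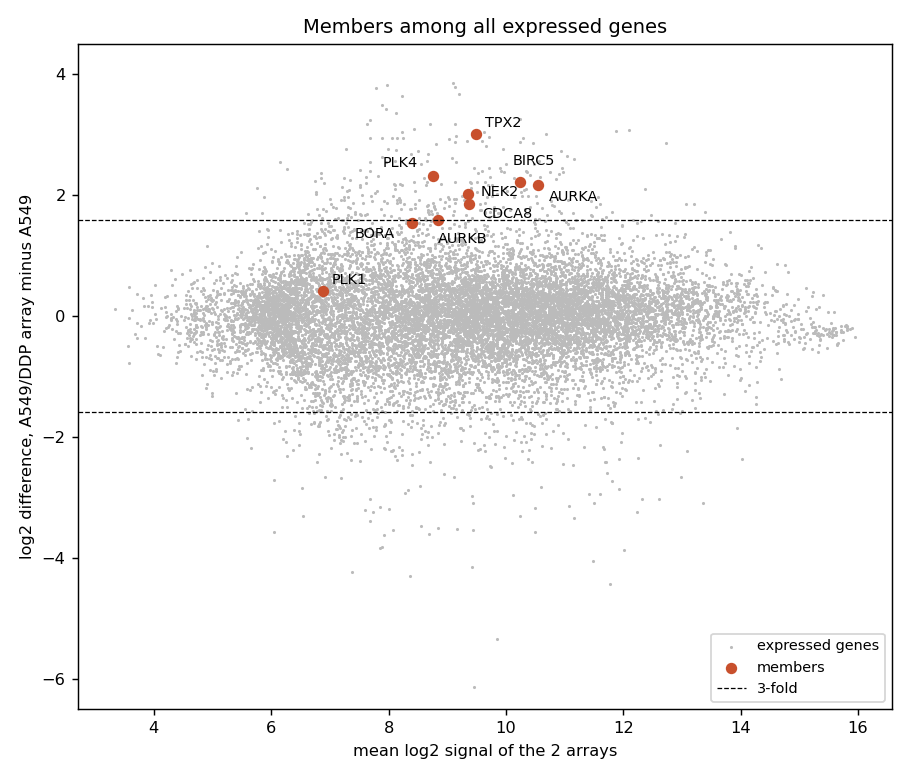
Log2 difference between the arrays (y axis) against the mean log2 signal (x axis) for the 13159 expressed genes, 1 point each, with values under the floor raised to it for the difference, the 9 expressed members labelled and 3-fold in either direction as dashed lines. TPX2 lies highest among the members, 7 members lie above the upper line, BORA just under it and PLK1 among the bulk of genes.

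Over all probe sets of the 10 genes, 17 of 19 reached the floor on 1 or both arrays, and all 17 had a higher measured signal on the array labelled A549/DDP. The dim probe sets of AURKA and PLK4 reached it on the A549/DDP array only, which fixed their direction in advance. Of the 17, 12 passed 3-fold with the floor applied, beside 1.82% of all single-gene probe sets above the floor that were higher by as much and 2.09% that were lower. The other 2, of AURKB and INCENP, were under the floor on both arrays and have no order. Of the 9 expressed members, 5 rested on 1 probe set above the floor. Probe sets of a gene share the same RNA and array and are not replicates of a line.

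**Figure D3:**
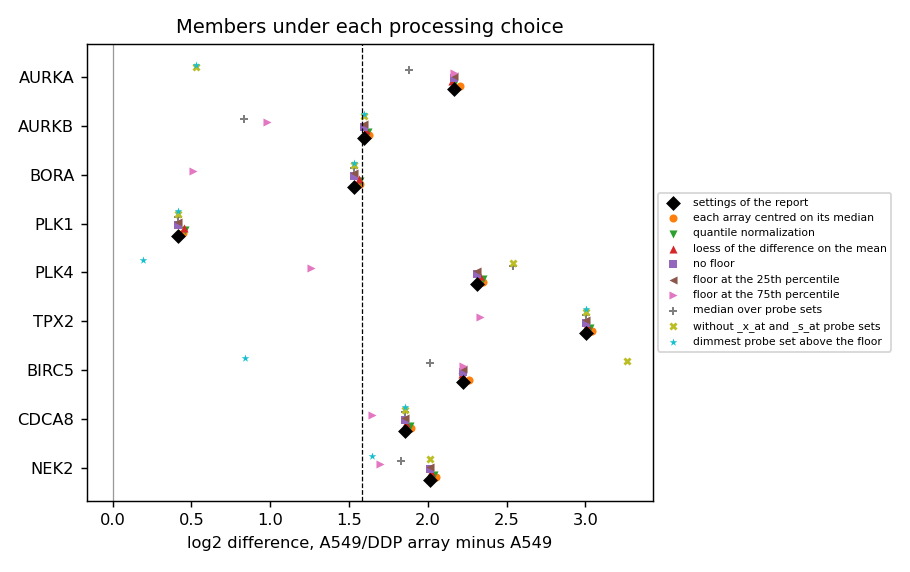
Log2 difference between the arrays (x axis) of each expressed member (y axis) under the settings of the report, as diamonds, and under 9 other choices of scaling, floor and probe set. All points lie above 0, the 3-fold line is dashed, and AURKA, AURKB, PLK4 and BIRC5 have points on both sides of it.

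The promoters of the member genes were searched for short elements known from cell cycle genes. The cell cycle homology region, which the DREAM and MuvB complexes bind, was searched as TTTGAA and TTCGAA, the CCAAT box of the factor NF-Y as CCAAT, and the E2F site as TTCCCGC and TTGGCGC, on both strands. The windows run from 250 bases before to 50 bases after an annotated start in RefSeq (GRCh38.p14), and 7 of the 10 genes had at least 1, with 2 windows for AURKB and 3 for PLK4. AURKA, TPX2 and BIRC5, with increases of 4.49-fold, 8.02-fold and 4.67-fold, had no window and are left out of the counts below. CCAAT was found in windows of 7 of 7 genes, beside 39.7% of the 27305 genes with a window. A cell cycle homology region in either form was found in 5 of 7, namely BORA, CDCA8, INCENP, PLK1 and PLK4, beside 19.5% of genes. Both elements stood in 1 window in BORA, CDCA8, INCENP and PLK1, beside 7.85% of genes. An E2F match was found in PLK4 alone, beside 11.0% of genes. The genes with both elements were thus CDCA8, with a 3.62-fold increase, BORA, with 2.89-fold, PLK1, with 1.33-fold, and INCENP, which was not expressed. A match is a string of letters and does not show that a factor binds there.

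These windows, 4 in all, are shown to set the promoter of the scaffold INCENP and of PLK1, which had no fold and a small one, beside those of their partners CDCA8 and AURKB. Capitals mark the matches to the letters above, read on either strand. The windows are chr17:8210176-8210475 on the minus strand for AURKB, chr1:37692266-37692565 on the plus strand for CDCA8, chr16:23678639-23678938 on the plus strand for PLK1 and chr11:62123761-62124060 on the plus strand for INCENP. TPX2, planned for this set, had no window, and CDCA8 was added after its values had been seen.
AURKB: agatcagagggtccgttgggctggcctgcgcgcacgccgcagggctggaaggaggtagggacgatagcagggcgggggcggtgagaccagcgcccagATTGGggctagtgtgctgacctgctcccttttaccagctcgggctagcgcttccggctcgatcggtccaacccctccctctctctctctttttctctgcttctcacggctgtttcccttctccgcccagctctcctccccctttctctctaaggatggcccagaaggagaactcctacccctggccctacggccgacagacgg
CDCA8: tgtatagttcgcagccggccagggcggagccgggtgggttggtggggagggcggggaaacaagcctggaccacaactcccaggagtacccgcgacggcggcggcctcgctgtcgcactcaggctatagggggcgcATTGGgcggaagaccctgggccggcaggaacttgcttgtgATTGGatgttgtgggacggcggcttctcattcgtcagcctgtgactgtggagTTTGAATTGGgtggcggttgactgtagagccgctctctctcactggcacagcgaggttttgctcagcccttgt
PLK1: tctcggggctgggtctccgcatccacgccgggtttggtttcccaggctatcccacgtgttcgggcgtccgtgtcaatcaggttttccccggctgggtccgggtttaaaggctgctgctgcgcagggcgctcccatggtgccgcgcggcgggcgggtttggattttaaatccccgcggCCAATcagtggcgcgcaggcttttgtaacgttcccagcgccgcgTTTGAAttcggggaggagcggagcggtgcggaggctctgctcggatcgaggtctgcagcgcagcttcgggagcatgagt
INCENP: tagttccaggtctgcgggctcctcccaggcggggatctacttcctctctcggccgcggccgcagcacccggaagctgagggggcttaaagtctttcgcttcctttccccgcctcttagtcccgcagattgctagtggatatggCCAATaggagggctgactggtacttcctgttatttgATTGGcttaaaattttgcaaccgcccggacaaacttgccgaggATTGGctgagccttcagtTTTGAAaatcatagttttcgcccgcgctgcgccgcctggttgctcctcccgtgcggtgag
In AURKB, a reversed CCAAT box began 153 bases before the start in this window, and no cell cycle homology region was found. In CDCA8, TTTGAA began 23 bases before the start and overlapped a reversed CCAAT box at 18 bases, with further boxes at 75 and 115 bases. PLK1 had CCAAT at 73 and TTTGAA at 29 bases before the start. INCENP had 3 CCAAT boxes, at 107, 71 and 28 bases, and TTTGAA at 10 bases. NEK2, whose window is not shown, had CCAAT at 66 and 34 bases before its start and no cell cycle homology region in this window.

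**Figure D4:**
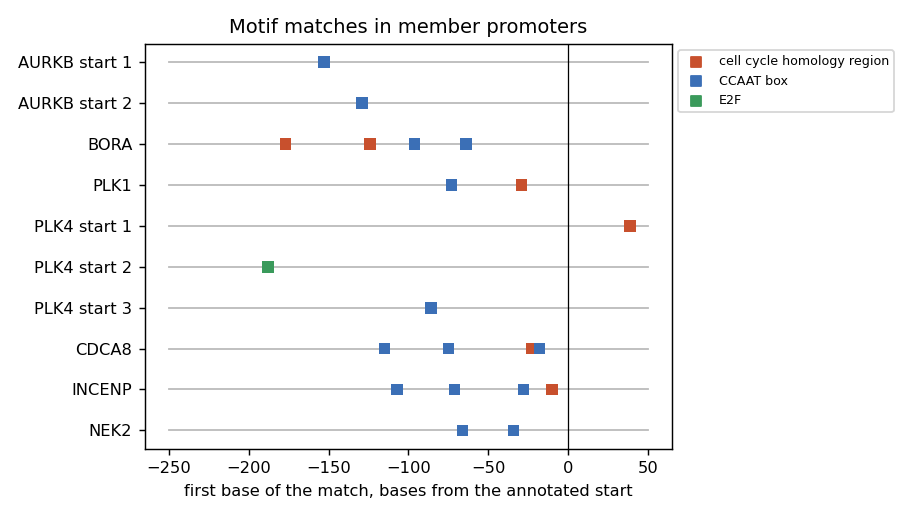
First base of each motif match in bases from the annotated start (x axis) in the 10 promoter windows of 7 member genes (y axis), with colours for the cell cycle homology region, the CCAAT box and E2F. Most CCAAT boxes lie between the start and 153 bases before it, and in CDCA8, PLK1 and INCENP a cell cycle homology region follows a CCAAT box.

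The genes that act with these kinases were then compared, from lists drawn up by role, again with earlier results of these data known. Of 81 expressed partner genes, 25 were higher by 3-fold or more on the array labelled A549/DDP and 1 was lower by as much, beside 2.14% and 2.18% of all expressed genes. Their median difference was 0.74. Among 17 expressed partners of the chromosomal passenger complex, 11 were at least 3-fold higher and 0 lower, with a median of 1.78. The kinetochore proteins NDC80 (7.15-fold) and KNL1 (6.43-fold), the midzone bundler PRC1 (5.07-fold) and the microtubule depolymerase KIF2C (4.89-fold) had the largest increases. By their dimmest probe set above the floor, KNL1 (at least 1.36-fold) and KIF2C (2.20-fold) were under the threshold. HASPIN, the kinase whose histone mark recruits the complex, went from 5.58 to 7.81, at least 3.01-fold higher, the A549 value being under the floor. Its direction was thus fixed in advance, and it is counted among the 11. BUB1, which writes a second recruiting mark, was 4.60-fold higher, and the shugoshins SGO1 and SGO2 were at least 2.32-fold and 4.04-fold higher. SGO1 reached the floor on the A549/DDP array only, by either of its probe sets, which fixed its direction in advance. The other SGO2 probe set, as bright in A549 (8.85), was 2.34-fold higher, under the threshold. A dim BUB1 probe set gave a bound of at least 1.55-fold. Like the dim probe sets of KNL1, it reached the floor on the A549/DDP array only, which fixed its direction in advance. AURKC, the germ cell relative of Aurora B, was under the floor on both arrays.

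Among the relatives and partners of PLK1, 10 of 18 expressed genes passed 3-fold upward and 0 downward. This stands beside 2.14% and 2.18% of all expressed genes. Their median was 1.69. The checkpoint kinase BUB1B (7.06-fold), the mitotic transcription factor FOXM1 (6.09-fold), cyclin B1 (CCNB1, 5.23-fold) and cyclin A2 (CCNA2, 4.47-fold) had the largest. CDC25C, a phosphatase that PLK1 phosphorylates, was 2.44-fold higher by its brightest probe set, and its probe sets did not share a direction. By their brightest probe sets, the stress-inducible relatives of PLK1 had the opposite sign to it. PLK2 went from 13.58 to 12.12, a 2.75-fold lower signal, and PLK3 from 9.05 to 8.07, a 1.96-fold lower signal. Neither gene passed 3-fold. Another PLK3 probe set above the floor was almost level, at 7.38 and 7.27 (1.08-fold lower), and its last lay under the floor on both arrays. PLK5 was under the floor on both arrays. Within the Polo-like family the differences thus ran from 2.31 for PLK4 to -1.46 for PLK2, with PLK1 between them.

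The partners of Aurora A had a median of 0.48 over 13 expressed genes. Of these, 3 passed 3-fold upward and 1 downward, beside 2.14% and 2.18% of all expressed genes. The spindle motor KIF11 (5.47-fold), TACC3, which Aurora A recruits to the spindle (3.76-fold), and the spindle pole protein HMMR (3.51-fold) were the 3 higher ones. The lower one was NEDD9, a focal adhesion scaffold that also binds and activates Aurora A. It went from 12.28 in A549 to 8.71 in A549/DDP, an 11.9-fold lower signal, and all 4 of its probe sets above the floor were lower. The other bright one had a difference of -4.24, while the 2 dim ones gave bounds of at least 2.97-fold and 1.11-fold lower, both under the threshold. These 2 reached the floor on the A549 array only, which fixed their direction in advance. TPX2 and NEDD9, which are among the activators of Aurora A, thus differed in opposite directions, by 3.003 and -3.57.

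Genes of centriole duplication differed less than PLK4 itself. Of 18 expressed genes, 14 were higher and 4 lower, beside 6628 and 6531 of all 13159 expressed genes. At 3-fold, 1 was higher and 0 lower, beside 2.14% and 2.18% of all expressed genes. The median was 0.58. STIL, which binds and activates PLK4, was that gene (3.65-fold). The centriole assembly factors CEP135 and CPAP were 2.94-fold and 2.92-fold higher, and CCP110, which caps centrioles, was 2.46-fold higher. A dimmer CPAP probe set, above the floor on both arrays, was 1.67-fold higher. With the floor at the 75th percentile, CEP135 differed by 0.50 only. CEP57, a centrosomal protein, was 2.30-fold lower, and all 5 of its probe sets were above the floor and lower. Among the other NEK kinases and the proteins of the centrosome linker, 0 of 15 passed 3-fold in either direction, with a median of 0.09. In so short a list, a count of 0 lies near the 2.14% and 2.18% of all expressed genes. LRRC45, a linker protein, was 2.65-fold higher, and STK3, a kinase upstream of NEK2, was 1.88-fold lower. CROCC, which forms linker fibres, was at least 1.82-fold higher (5.18 and 7.09). It reached the floor on the A549/DDP array only, which fixed its direction in advance. Among the relatives of BIRC5, which share its BIR domain, 0 of 5 expressed genes passed 3-fold, again near those shares. NAIP went from 4.82 to 7.30, at least 2.11-fold higher. Its A549 value was under the floor, which fixed its direction in advance. Its other probe sets, at 1.92 and 1.45 and at 5.61 and 4.92, were under the floor on both arrays. BIRC6 differed by 0.54 and XIAP by -0.23, beside 2.22 for BIRC5. NAIP and CROCC passed 3-fold with the floor at the 25th percentile or with none, at differences of 2.48 and 1.90.

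**Figure D5:**
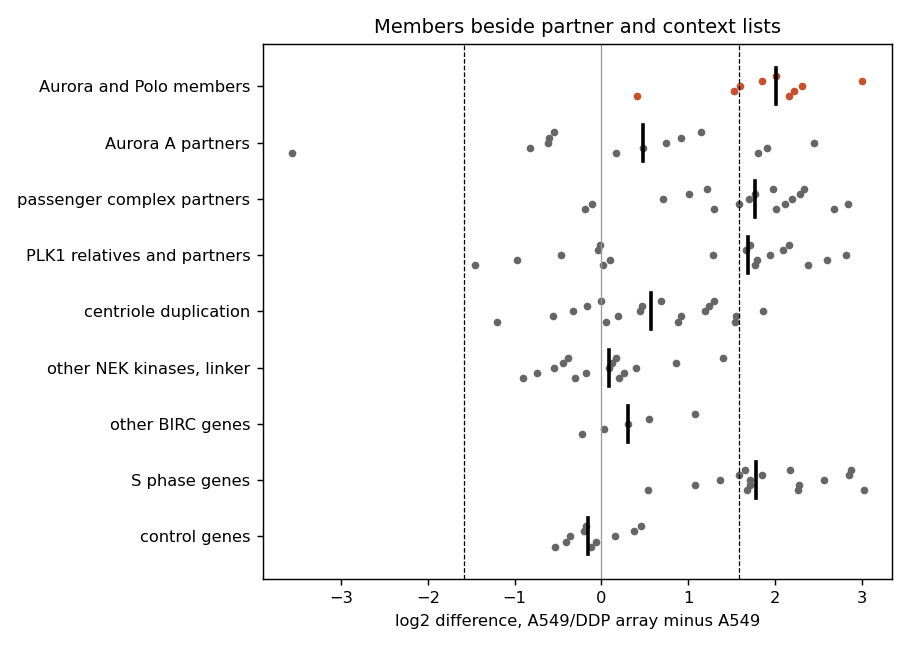
Log2 difference between the arrays (x axis) of the expressed genes of 9 lists (y axis), 1 point for each gene, with the list's median as a black bar and 3-fold in either direction as dashed lines. The members, the passenger complex partners, the PLK1 partners and the S phase genes have medians from 1.69 to 2.01, and the other NEK kinases and the control genes lie around 0.

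Genes that act outside mitosis were higher too. A list of 16 S phase genes included genes that supply nucleotides or copy DNA and the cyclins CCNE1 and CCNE2. Of these 16, 12 were at least 3-fold higher and 0 lower, beside 2.14% and 2.18% of all expressed genes. Their median was 1.78, led by CCNE2 (8.15-fold), GINS2 (7.35-fold) and RRM2 (7.25-fold). A dim second probe set of GINS2 gave a bound of at least 1.17-fold, its direction fixed in advance by reaching the floor on the A549/DDP array only. The part of S phase genes in the difference of the Aurora and Polo genes was not tested. In 10 control genes of general use, 0 passed 3-fold, which in so short a list lies near the shares of all expressed genes. Their median was -0.15, and differences ran from -0.53 to 0.46.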

How the data were processed

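RNA was labelled with a 3' IVT kit and hybridised to 1 array for each line. The deposited values are log2 signals made by the authors, 1 for each of 54675 probe sets and array. MAS5 and affy are given in the submitters' processing notes without a version, while the methods describe SCAN with UPC. The values had the properties of MAS5: with 2% trimmed at each end, the mean linear signal was 500.1 on both arrays. They were used as deposited. MAS5 subtracts a mismatch signal and scatters at low brightness, and the number of arrays, 2, limits the precision.

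A second deposited table names cells other than these samples. None of its 4 columns of signals and calls was used, nor were its fold columns, which hold the authors' own comparison.

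The platform annotation gave 1 gene for 41097 probe sets, and only these were named, 41043 of them through current RefSeq symbols. Control probe sets (62) were left out. Where the listed symbol was older, the current one was used (CPAP for CENPJ). Listed partner genes without a single-gene probe set, AURKAIP1 and NEK1, were not analysed here.

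The members and lists were chosen with earlier results of these data known. Named genes were all members, up to 4 genes with the largest difference in each list, and AURKC, PLK2, PLK3, HASPIN, STIL, CDC25C and FOXM1. BUB1, SGO1, SGO2 and CEP57 were named in addition, after their values had been seen. Alternatives were median centring, quantile normalization, loess (span 0.3, 3 iterations), a floor at the 25th percentile, at the 75th or none, a gene's median probe set value, its dimmest probe set that reached the floor, omission of _x_at and _s_at probe sets, and thresholds of 2-fold and 5-fold. The steps were tested on simulated data. Python 3.11.15, pandas 2.3.3 and statsmodels 0.14.6 were used.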

Additional observations from a re-analysis of the deposited data

How the results depend on the processing

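Each of the 80 values of the 9 expressed members under another scaling, floor or choice of probe set was above 0. For the dim probe sets of AURKA and PLK4, above the floor on the A549/DDP array only, this was fixed in advance. TPX2, CDCA8 and NEK2 passed 3-fold in all 10 settings, and BORA and PLK1 in none. The count of members at least 3-fold higher was 7, beside 2.14% of all genes with a value. It was 4, beside 1.87%, when a gene took its dimmest probe set that reached the floor, and 1, TPX2, beside 0.60%, at a 5-fold threshold. With the dimmest probe set, AURKA (0.53), PLK4 (0.20) and BIRC5 (0.84) were under the threshold, the values of AURKA and PLK4 being bounds set by the floor, while the cause for BIRC5 was not tested. The other settings gave 5 to 8 members, 5 with the floor at the 75th percentile, beside 1.52%, where AURKB (0.98) and PLK4 (1.26) fell under 3-fold. AURKA was under it without _s_at and _x_at probe sets (0.53), and AURKB when probe sets were summarised by their median (0.83), with 1 of its 2 under the floor. Asking that every probe set of a gene above the floor pass 3-fold as measured, a choice made after the data were seen, values under the floor included, left 5 members and 21 partner genes, beside 4.63% of all genes. The median of the members was 1.53 with the dimmest probe set, against 2.01, and 1.67 to 2.05 in the other settings. Of 81 expressed partner genes, 25 were at least 3-fold higher and 1 lower, beside 2.14% and 2.18% of all expressed genes. At 2-fold, 36 were higher and 3 lower, beside 6.13% and 7.4%. At 5-fold, 7 were higher and 1 lower, beside 0.60% higher. The 3-fold count of higher partners was 17 with the floor at the 75th percentile, beside 1.52%, where fewer partners had a value. It was 19 with the dimmest probe set, beside 1.87%, and 22 to 26 in the other planned settings. GTSE1, a partner of PLK1, reversed to -0.54 without _x_at and _s_at probe sets, where 1 dim probe set was left, a bound set by the floor. Without a floor, 8.70% of all genes were at least 3-fold higher, so the background of the member count depends on the floor. Replicate error could not be assessed. No paired analysis was possible because each line had 1 array.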

Other observations

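The 9 expressed members lie on chromosomes 1, 4, 13, 16, 17 and 20. Among the 90 expressed genes next to them, 5 on each side of each member, 2 were at least 3-fold higher on the array labelled A549/DDP and 3 at least 3-fold lower, beside 2.14% and 2.18% of all expressed genes. Their differences ran from -1.84 to 2.73. The medians of the 10 neighbours ran from -0.52 beside AURKB to 0.13 beside PLK1 and CDCA8. The 2 higher neighbours, named after their values had been seen, were TK1 beside BIRC5, with a difference of 1.75, and DTL beside NEK2, with 2.73. TK1 encodes thymidine kinase, which supplies nucleotides for DNA synthesis, and DTL encodes an adaptor of a ubiquitin ligase active in S phase. Beside TPX2, whose own difference was 3.003, the neighbours ran from -1.04 to 0.16.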
